A study of Mus musculus with 2 samples.

Results

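A set of 10 imprinted genes was followed in MIN6 cells: the paternally expressed protein genes Nnat, Peg3, Dlk1, Igf2 and Plagl1, the maternally expressed noncoding RNA genes Meg3, Rian, Mirg and H19, and the adaptor gene Grb10. They were chosen by symbol from an all-gene table of 21542 genes. Of the 10 genes, 9 have a row in that table and H19 has none, so H19 counts as not measured. A mean of at least 50 reads was reached by 7 of the 9, while Grb10 and Mirg were under it. Coordinates are on GRCm38, from GENCODE M21.

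MIN6 is an insulin-secreting line grown from a mouse insulinoma that arose in transgenic mice carrying the SV40 large T antigen under an insulin promoter, and the labels give its strain as C57BL/6. Cells in the GR group received a vector expressing GR, the receptor for glucocorticoids, which is encoded by Nr3c1, and the control group received a control vector, with 1 sample in each. Both were grown in DMEM with 25 mM glucose and 15% serum and received 4 ug of plasmid with 4.8 ul of a Lipofectamine reagent in a 3.5 cm dish. The labels state no question beyond that contrast. How many cells took up plasmid, when they were harvested and whether a GR ligand was present is unknown here. With 1 library per group there is no replicate check on any difference below, and a change in few cells cannot be told apart from a smaller change in many.

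An imprinted gene is transcribed mainly or only from the copy inherited from 1 parent, because DNA methylation set in the egg or sperm marks one copy of a nearby control region. Imprinted genes lie in clusters in which paternally expressed protein genes often neighbour maternally expressed noncoding RNA genes, and many of them act on growth, metabolism and hormone signalling. In mouse beta cells, Nnat takes part in the handling of preproinsulin, and the Dlk1-Meg3 region has been studied in islets for its noncoding RNAs. Gene counts from a single strain do not separate the transcripts of the parental copies, so the values below are total levels and say nothing of which copy was read.

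The libraries held 18525668 reads over genes with the GR vector and 18537326 with the control vector. Nr3c1, the targeted gene, had 5202 reads with the GR vector and 2645 with the control vector, a fold of 1.97 (95% interval 1.88 to 2.07). Each of 14 beta cell markers had reads in both libraries, from 145 for Ucn3 to 373033 for Ins2 with the GR vector and from 159 to 407986 with the control vector. Of 8 exocrine markers 2 had a row, Cela1 with 13 reads with the GR vector and 7 with the control vector, and the duct keratin gene Krt7 with 2166 with the GR vector and 2429 with the control vector. Of 11 stromal, endothelial and immune markers 8 had a row, and their reads summed to 134 with the GR vector and 123 with the control vector. Among 7 markers of other islet cells, 4 had a row and summed to 767 reads with the GR vector and 653 with the control vector, most of them from the glucagon gene Gcg with 623 with the GR vector and 537 with the control vector. Among the markers averaging 50 reads or more, those past 1.2-fold were the somatostatin gene Sst, with 114 reads with the GR vector and 92 with the control vector, and the collagen gene Col1a1, with 68 reads with the GR vector and 55 with the control vector, and neither passed the library test described below. That test called Ins2, Iapp, Ins1 and Krt7, lower with the GR vector (folds 0.917, 0.968, 0.956 and 0.894). It also called the prohormone convertase gene Pcsk1, higher (fold 1.08). Over all genes it called 2.72%, and 4.52% of those averaging 50 reads or more. Of genes averaging 5000 reads or more, where Ins2, Iapp and Ins1 lie, it called 22.8%. Iapp had 273874 reads with the GR vector and 283796 with the control vector, Ins1 had 51817 reads with the GR vector and 54374 with the control vector, and Pcsk1 had 3543 reads with the GR vector and 3279 with the control vector. The part of these other transcripts in the values below was not tested.

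The noncoding members are hosts of small RNAs, and the sequences below are some of the miRNAs that lie within them and within Igf2. From RefSeq's GRCm38.p6 table, only miRNAs on the strand of the host were counted. Mirg spans 14 such miRNA genes with 26 mature miRNAs, Rian 3 genes with 6 and Meg3 2 genes with 3. Igf2 spans 1 miRNA gene with 2 mature forms. So does H19, which was not measured and whose miRNAs are not printed. A selection with the largest number from Mirg, the member whose 2 values stood furthest apart, is printed here from 5′ to 3′ with the seed (bases 2 to 8, which pair with a target) in capitals. Those values of Mirg rest on 3 reads with the GR vector and 15 with the control vector, and no adjusted p below called it. The miRNAs themselves were not measured by these libraries.
miR-770-5p (within Meg3, chr12:109563710-109563731, plus strand): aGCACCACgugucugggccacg
miR-370-3p (within Rian, chr12:109618305-109618326, plus strand): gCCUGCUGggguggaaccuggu
miR-382-5p (within Mirg, chr12:109733781-109733802, plus strand): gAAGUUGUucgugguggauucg
miR-134-5p (within Mirg, chr12:109734145-109734166, plus strand): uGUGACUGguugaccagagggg
miR-453 (within Mirg, chr12:109735669-109735692, plus strand): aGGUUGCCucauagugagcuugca
miR-496a-5p (within Mirg, chr12:109739132-109739152, plus strand): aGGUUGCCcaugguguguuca
miR-154-5p (within Mirg, chr12:109738438-109738459, plus strand): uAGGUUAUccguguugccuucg
miR-377-3p (within Mirg, chr12:109740553-109740574, plus strand): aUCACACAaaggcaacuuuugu
miR-409-3p (within Mirg, chr12:109743204-109743225, plus strand): gAAUGUUGcucggugaaccccu
miR-410-3p (within Mirg, chr12:109743764-109743784, plus strand): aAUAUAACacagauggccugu
miR-483-5p (within Igf2, chr7:142654968-142654989, minus strand): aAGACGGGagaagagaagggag
miR-483-3p (within Igf2, chr7:142654932-142654952, minus strand): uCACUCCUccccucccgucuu
miR-453 and miR-496a-5p share the seed GGUUGCC. It is the 1 seed that occurs more than once among the 26 mature miRNAs of Mirg, which hold 25 different seeds.

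Levels per length spanned several orders of magnitude, and with the deposited gene lengths the order of the members was the same in both libraries. The scale is RPKM, reads scaled to exon length and to the library's total over genes, with an exact 95% Poisson interval that, like every interval here, covers counting error only. Nnat was highest at 180.3 (175.8 to 184.8) with the GR vector and 186.0 (181.4 to 190.6) with the control vector, above 99.4% of the genes with reads with the GR vector and 99.5% with the control vector. With the GR vector Peg3 followed at 86.3, Dlk1 at 22.5, Igf2 at 15.0 and Plagl1 at 4.54, against 83.5, 23.4, 15.8 and 4.33 for the same genes with the control vector. The noncoding genes Meg3 and Rian lay lower, at 0.967 and 0.882 with the GR vector and 1.04 and 0.876 with the control vector. Their intervals overlapped in each library, while the ratio of Meg3 to Rian had an interval that included 1 with the GR vector (0.934 to 1.29) and not with the control vector (1.02 to 1.39). Their order turned when the longest transcript served as length (1.202 RPKM for Meg3 and 1.99 for Rian with the GR vector, 1.29 for Meg3 and 1.97 for Rian with the control vector). Grb10 stood at 0.1604 (0.106 to 0.233) with the GR vector and 0.113 (0.0679 to 0.176) with the control vector. Mirg stood at 0.0222 (0.0046 to 0.0649) with the GR vector, apart from Grb10, and at 0.111 (0.0621 to 0.183) with the control vector, where the intervals of the 2 genes overlapped. With the longest transcript as length Mirg stood under Grb10 with the GR vector (0.0424 and 0.288) and above it with the control vector (0.212 and 0.203), so the order then differed between the libraries. With the deposited lengths, every other pair of neighbours had intervals that did not overlap.

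**Figure D1:**
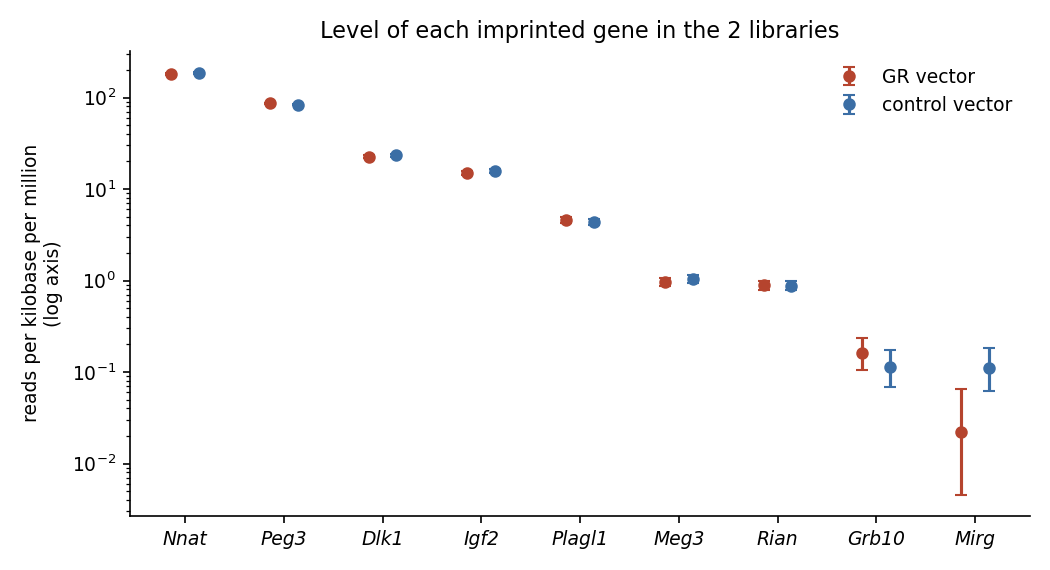
Level of each measured imprinted gene in RPKM, reads scaled to exon length and library total (log axis), with the GR vector in red and the control vector in blue. Points are 1 library each and bars are exact 95% Poisson intervals, which are narrower than the points for the most read genes. Levels ran from 180.3 for Nnat to 0.0222 for Mirg with the GR vector, and from 186.0 for Nnat to 0.111 for Mirg with the control vector.

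The 7 well read members had close values in the libraries. Their folds, GR vector over control vector, ran from 0.931 for Meg3 to 1.05 for Plagl1, with a median log2 fold of -0.04 against 0.0037 over all 12119 genes that reached that mean. None of the 7 reached a 1.2-fold difference in either direction, a limit passed by 7.99% of those 12119 genes. With no minimum of reads 2 of the 9 measured members passed it, Grb10 and Mirg, beside 37.5% of all genes in the table. Over the 7 genes the 95% counting intervals stayed between 0.798 (Meg3) and 1.19 (Rian). The share of genes past this limit fell with the number of reads. The limit was passed by 9.25% of 2422 genes with a mean of 200 to 500 reads, where Meg3 and Rian lie, by 1.53% of genes with 500 to 1000, where Plagl1 lies, and by 0.327% of genes with 1000 to 5000, where Dlk1 and Igf2 lie. Of the 592 genes with 5000 or more, Nnat and Peg3 among them, 0 passed it.

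In the authors' deposited table, which tests 1 library against the other with a preset spread, none of the 9 members passed an adjusted p under 0.05 and all had an adjusted p of 1, against 0.0186% of all genes called (4 of 21542). An unadjusted p under 0.05 together with a log2 fold past 1 in size was met there by 1 of the 9, Mirg, beside 1.08% of all genes. What is called the library test here asks by a two-sided exact binomial test whether a gene's reads split as the library sizes do, with p-values adjusted by Benjamini-Hochberg over the whole table, and it compares the 2 libraries and not the conditions. It called 1 of the 9 members, Peg3, against 2.72% of all genes, 4.52% of those averaging 50 reads or more and 22.8% of those averaging 5000 or more. By direction that was 1 higher, beside 1.58% of all genes, and 0 lower, beside 1.14%.

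**Figure D2:**
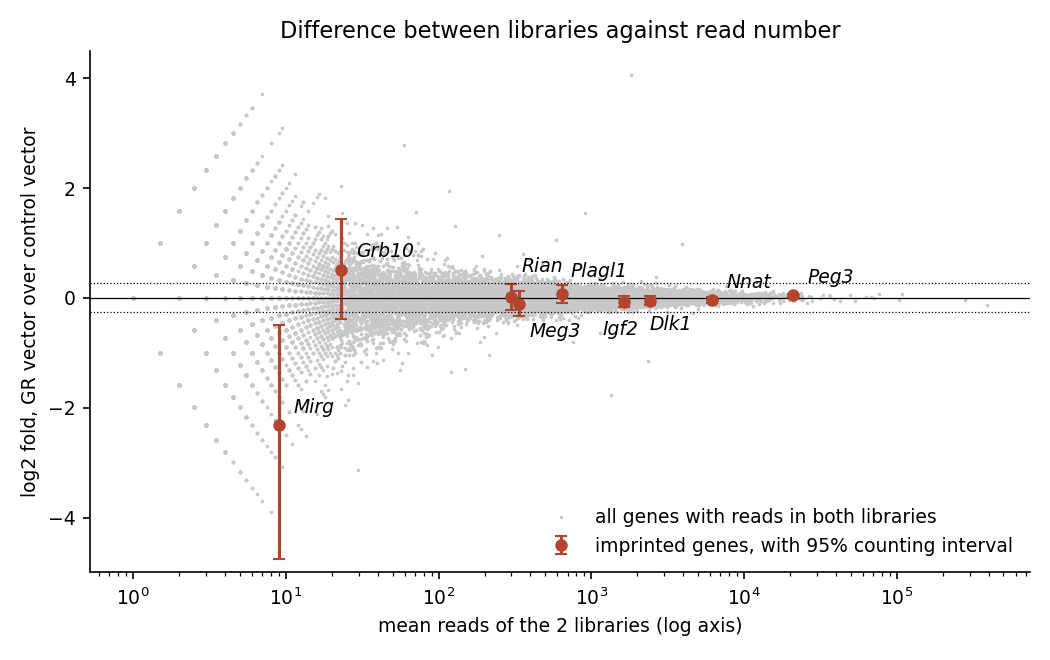
Log2 fold, GR vector over control vector, against the mean reads of the libraries (log axis), for every gene with reads in both (grey) and the 9 measured imprinted genes (red, with exact 95% counting intervals). Dotted lines mark 1.2-fold. The 7 well read members lie between -0.10 (Meg3) and 0.07 (Plagl1), while Grb10 and Mirg lie in the region of few reads where grey points spread widely.

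Nnat encodes neuronatin, a small membrane proteolipid of the endoplasmic reticulum (ENSMUSG00000067786, chromosome 2, 157560078 to 157562522, plus strand). It had 6108 reads with the GR vector and 6305 with the control vector, a fold of 0.972 (0.938 to 1.01). Its log2 fold of -0.04 turned to 0.01 with the trend of GC content removed, so no direction can be given. Nnat lies inside an intron of Blcap, a widely expressed gene on the opposite strand, and the exons of the genes do not overlap. Blcap had 1158 reads with the GR vector and 1233 with the control vector (fold 0.942, 0.869 to 1.02), and per length Nnat stood 8.78 times above it with the GR vector and 8.51 times with the control vector.

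Peg3, a large zinc finger protein that binds DNA (ENSMUSG00000002265, chromosome 7, 6703892 to 6730431, minus strand), was the most read member. It had 21297 reads with the GR vector and 20625 with the control vector, or 65.2% of all reads of the 9 members with the GR vector and 63.7% with the control vector. The fold was 1.04 (1.02 to 1.06), with an adjusted p of 0.0215 in the library test. The value was thus slightly higher with the GR vector, inside the range of 0.930 to 1.09 that held the central 95% of genes with 5000 reads or more. Its log2 fold of 0.05 was 0.03 with the GC trend removed. Usp29, which starts 147 bases away and runs the other way, had 820 reads with the GR vector and 831 with the control vector, and Zim1, a further zinc finger gene of the cluster, had 155 with the GR vector and 180 with the control vector. Neither passed the library test, and per length Peg3 stood 35.2 times above Usp29 with the GR vector and 33.7 times with the control vector.

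Dlk1, a membrane protein with EGF-like repeats that acts as a noncanonical Notch ligand (ENSMUSG00000040856, chromosome 12, 109452823 to 109463336, plus strand), had 2363 reads with the GR vector and 2452 with the control vector. Its fold was 0.966 (0.913 to 1.02). Igf2, the secreted insulin-like growth factor 2 (ENSMUSG00000048583, chromosome 7, 142650766 to 142666816, minus strand), had 1589 reads with the GR vector and 1675 with the control vector, a fold of 0.951 (0.888 to 1.02). Both intervals include 1. The counts of Igf2 are uncertain in their assignment: 63.1% of its 31-mers (stretches of 31 bases of its transcripts) also occur in another annotated gene, and 62.8% of its exonic bases lie in the exons of Gm49394, a protein-coding gene model on the same strand with no row in the table. The antisense gene Igf2os shares 98 exonic bases with it and had 3305 reads with the GR vector and 3544 with the control vector (fold 0.935, 0.892 to 0.981). Whether counting used strand is unknown here, so reads in the shared bases cannot be assigned.

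Plagl1 encodes a zinc finger transcription factor of several imprinted loci, and extra copies of its active allele are linked to transient neonatal diabetes in humans (ENSMUSG00000019817, chromosome 10, 13060504 to 13131694, plus strand). It had 658 reads with the GR vector and 628 with the control vector, a fold of 1.05 (0.941 to 1.17). Only 0.248% of its 31-mers occur in another gene. The nearest genes on either side, Sf3b5 and Ltv1, had intervals of 0.933 to 1.13 and 0.965 to 1.25, which also include 1.

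The maternally expressed noncoding genes lie in a row behind Dlk1 on chromosome 12, all on the plus strand. Meg3 (ENSMUSG00000021268, 109541001 to 109571726) begins 77665 bases after Dlk1 and had 324 reads with the GR vector and 349 with the control vector, a fold of 0.931 (0.798 to 1.09). Rian (ENSMUSG00000097451, 109603940 to 109661716), the host of a row of C/D box snoRNAs, begins 32214 bases further on and had 298 reads with the GR vector and 296 with the control vector, a fold of 1.01 (0.857 to 1.19). Its log2 fold of 0.01 turned to -0.06 with the GC trend removed. Both intervals include 1. Of the 31-mers of Meg3, 11.4% occur in another gene, and 1228 of its exonic bases lie opposite exons of the lincRNA gene Gm26906. Per length, Dlk1 stood 23.3 times above Meg3 with the GR vector (20.8 to 26.3) and 22.5 times with the control vector (20.1 to 25.2).

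Mirg (ENSMUSG00000097391, 109729764 to 109749460), the miRNA host printed above, begins 68048 bases after Rian and had 3 reads with the GR vector and 15 with the control vector. The fold was 0.201, with a 95% interval of 0.0372 to 0.709. It is the 1 member in the authors' deposited list of 233 genes, which holds 1.08% of all genes, 0.548% on the lower side, and takes those with p under 0.05 before adjustment and a log2 fold past 1 in size. The authors' deposited table gives Mirg a log2 fold change of -2.27 with p = 0.0210 before adjustment and 1 after it. In the library test its adjusted p was 0.142. Among 4909 genes with a mean of 1 to 10 reads and reads in both libraries, the central 95% of folds ran from 0.201 to 5.01. The value of Mirg lay at the lower edge of that class, but its mean of 9 reads is near the top of the class. Among 2916 genes with a mean of 10 to 50 reads the central 95% ran from 0.413 to 2.25, and the value of Mirg lies below that range. Only 2.81% of its 31-mers occur elsewhere, while several of its miRNA hairpins lie within its exons. The upstream genes Meg3 and Rian, read far more often, had folds of 0.931 and 1.01.

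H19, the noncoding gene that shares enhancers with Igf2 and is its maternal counterpart, has no row in the table and was not measured. In GENCODE M21 it lies on chromosome 7, 142575529 to 142578143, minus strand. The lowest total of any gene with a row was 2 reads over both libraries.

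Grb10, an adaptor that binds the insulin and IGF1 receptors and dampens their signal, is expressed from the maternal copy in most tissues and from the paternal copy in neurons (ENSMUSG00000020176, chromosome 11, 11930508 to 12038683, minus strand). It had 27 reads with the GR vector and 19 with the control vector, a fold of 1.43 (0.764 to 2.71). The interval includes 1, and the central 95% of folds among 2916 genes with a mean of 10 to 50 reads ran from 0.413 to 2.25. Its neighbour Ddc, aromatic L-amino acid decarboxylase, is imprinted in the mouse heart and had 561 reads with the GR vector and 550 with the control vector (fold 1.02, 0.908 to 1.15). Per length Ddc stood 42.3 times above Grb10 with the GR vector (28.8 to 64.8) and 59.0 times with the control vector (37.4 to 98.7).

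Promoter windows of the members, 300 bases around the start as given by RefSeq for GRCm38.p6, were searched on both strands for 4 motifs. All 9 measured members matched the table, with 14 windows. The palindromic GR element, AGAACA and TGTTCT with 3 free bases between them, was in 0 of the 14 windows and in 0.00913% of all 32851 windows. AGAACA alone, which lies within that element, was in 4 of the 14 (Rian, Mirg, Igf2 and Nnat) and in 18.97% of all windows. TGCCGC, the hexamer that the imprint-keeping protein ZFP57 binds when methylated, was in 5 of the 14 (Meg3, Igf2, Plagl1, Grb10 and Nnat) and in 11.6% of all. GGGGCCCC, the core of PLAGL1 sites, was in 1 of the 14 (Peg3) and in 1.08% of all. The 4 windows printed here are those of the 2 members with the highest levels, of Plagl1 and of Mirg, with every match in capitals. A match describes the letters and does not show a bound site. The windows of Plagl1 and Mirg begin inside the genes as GENCODE M21 draws them. That of Mirg covers parts of 2 of its miRNA genes, Mir668 and Mir485.
Nnat promoter window (chr2:157559828-157560127, plus strand): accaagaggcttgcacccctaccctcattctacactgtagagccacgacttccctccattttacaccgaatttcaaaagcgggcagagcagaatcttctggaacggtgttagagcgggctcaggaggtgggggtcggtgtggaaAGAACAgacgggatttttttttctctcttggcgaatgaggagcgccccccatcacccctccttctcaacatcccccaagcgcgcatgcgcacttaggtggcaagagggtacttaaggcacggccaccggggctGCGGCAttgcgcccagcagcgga
Peg3 promoter window (chr7:6730370-6730669, minus strand): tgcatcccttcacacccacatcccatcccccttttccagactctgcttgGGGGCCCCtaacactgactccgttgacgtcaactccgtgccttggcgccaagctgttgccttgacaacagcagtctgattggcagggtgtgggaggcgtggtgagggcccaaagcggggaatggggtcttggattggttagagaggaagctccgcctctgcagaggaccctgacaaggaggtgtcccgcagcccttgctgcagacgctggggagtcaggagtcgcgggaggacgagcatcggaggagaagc
Plagl1 promoter window (chr10:13090582-13090881, plus strand): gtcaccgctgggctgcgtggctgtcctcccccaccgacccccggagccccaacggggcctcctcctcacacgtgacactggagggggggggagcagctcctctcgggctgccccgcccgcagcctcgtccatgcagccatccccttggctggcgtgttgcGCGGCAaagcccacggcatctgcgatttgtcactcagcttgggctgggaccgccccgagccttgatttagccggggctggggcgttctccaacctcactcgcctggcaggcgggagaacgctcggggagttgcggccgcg
Mirg promoter window (chr12:109734731-109735030, plus strand): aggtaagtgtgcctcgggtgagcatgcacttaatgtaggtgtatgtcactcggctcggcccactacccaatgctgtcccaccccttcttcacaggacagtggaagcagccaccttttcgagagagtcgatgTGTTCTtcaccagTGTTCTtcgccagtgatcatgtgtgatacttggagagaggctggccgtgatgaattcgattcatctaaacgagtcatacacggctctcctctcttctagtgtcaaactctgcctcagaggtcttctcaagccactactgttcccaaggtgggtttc
The capitals mark AGAACA and TGCCGC in Nnat (the second read from the other strand), GGGGCCCC in Peg3, TGCCGC from the other strand in Plagl1 and AGAACA from the other strand in Mirg, where it occurs at 2 places. CpG dinucleotides numbered 17, 13, 26 and 10 in these windows, against a median of 7 and quartiles of 3 and 20 over all windows. In the member windows not printed they ran from 0 (Rian) to 45 (Grb10).

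Further imprinted genes also had small differences. Of 62 others listed, 48 had a row and 33 averaged 50 reads or more. Of these 33 none passed 1.2-fold, again beside 7.99% of the 12119 genes that averaged 50 reads or more. That share was 31.2% among genes with a mean of 50 to 200 reads and 0.327% among those with 1000 to 5000. It was 0% among those with 5000 or more, where Ins2, Igf2r and Rasgrf1 lie. The log2 folds of the 33 ran from -0.22 for Mcts2 to 0.23 for Snrpn with a median of 0.02, 19 above 0 and 14 below. These extremes were named after their values were seen, and the count of Snrpn is uncertain, since 34.5% of its 31-mers occur in another gene. In the clusters of the members (10 genes as well read) the median was -0.08, and 3 lay above 0 and 7 below. In other clusters (23 genes) it was 0.05, and 16 lay above 0 and 7 below. Over all 12119 genes it was 0.0037, and 6186 lay above 0 and 5933 below. With the GC trend removed the median was -0.06 in the members' clusters, 0.0094 in other clusters and -0.00013 over all 12119 genes. Whether the clusters differ in direction was not tested. The lists were chosen with earlier results of these data known.

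The 2 most read genes of the members' clusters were Ins2 and Igf2os. Ins2, the insulin 2 gene, which is imprinted in the mouse yolk sac, lies 11840 bases from Igf2 and had 373033 reads with the GR vector and 407986 with the control vector, a fold of 0.917 (0.913 to 0.921). It was the 1 gene of the 18 measured in these clusters past the library test, beside 2.72% of all genes and 22.8% of those averaging 5000 reads or more, where Ins2 lies. Per length it stood 1024 times above Igf2 with the GR vector and 1062 times with the control vector. In other clusters the most read were Igf2r, the receptor that clears IGF2 (7866 reads with the GR vector and 7603 with the control vector, fold 1.04, 1.01 to 1.07), and Rasgrf1, a Ras exchange factor (7476 reads with the GR vector and 7283 with the control vector, fold 1.03, 0.997 to 1.06). The library test called 1 of 30 there, Inpp5f, a phosphoinositide phosphatase, with 2001 reads with the GR vector and 1807 with the control vector and an adjusted p of 0.0477. A count of 1 of 30 is near the share over all genes, 2.72%, or 4.52% of those averaging 50 reads or more. Inpp5f was named after its value was seen.

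**Figure D3:**
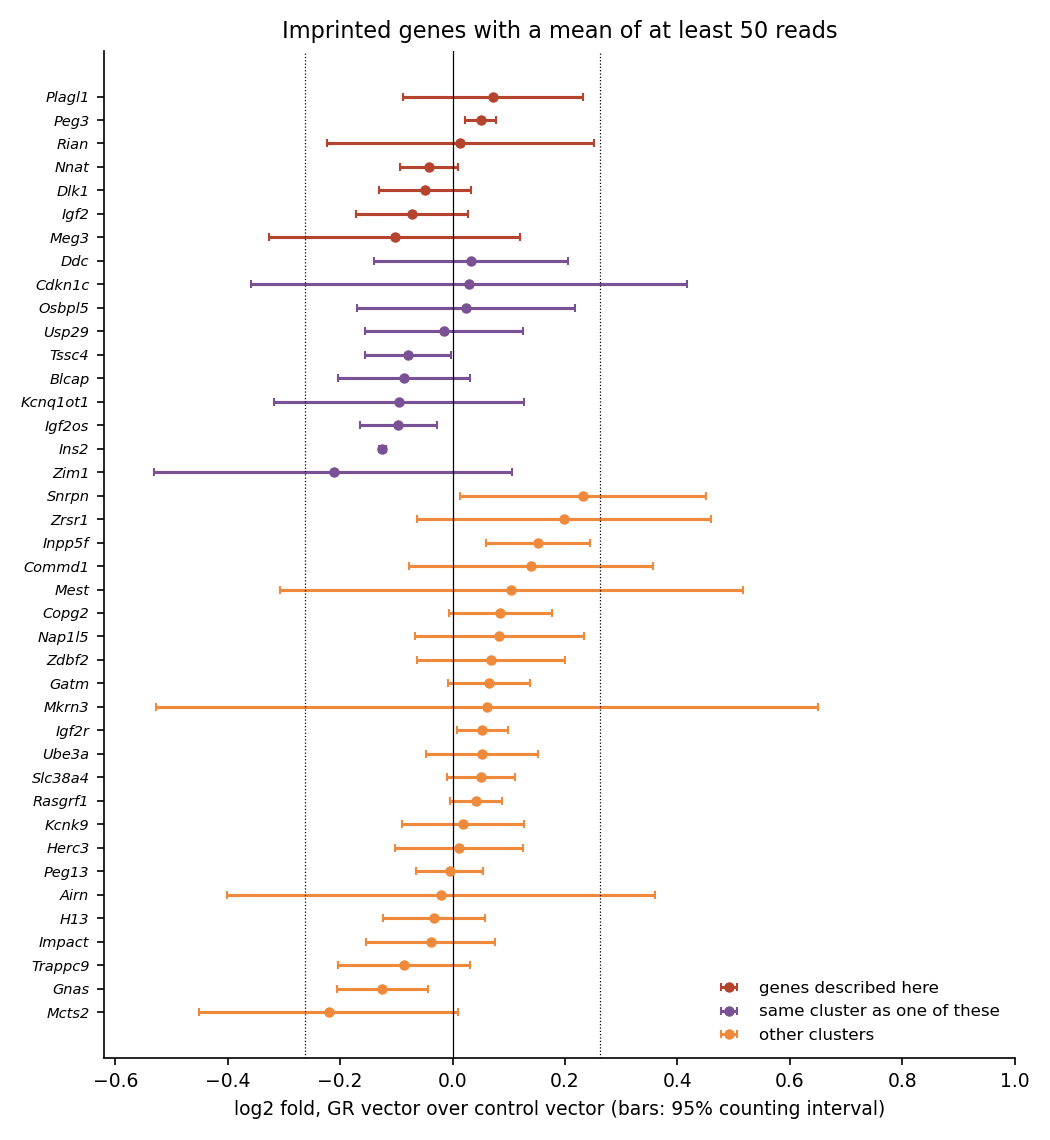
Log2 fold, GR vector over control vector, of the 40 imprinted genes that averaged 50 reads or more, with exact 95% counting intervals. The genes described here are in red, others of their clusters in purple and those of other clusters in orange, and dotted lines mark 1.2-fold. All 40 points lie inside the dotted lines, from -0.22 for Mcts2 to 0.23 for Snrpn.

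Factors that keep or set imprints were well read. Of 17 listed 13 had a row, with 152 to 9487 reads with the GR vector and 161 to 9506 with the control vector. None passed 1.2-fold, beside 7.99% of well read genes, and the median log2 fold was 0.03. That share depends on read number. It was 0.327% among genes with a mean of 1000 to 5000 reads, where Zfp445 lies. Among the 592 genes with 5000 or more, where Dnmt1 and Trim28 lie, it was 0%. Dnmt1, the methyltransferase that copies DNA methylation at replication, had 9487 reads with the GR vector and 9506 with the control vector (fold 1.00, 0.973 to 1.03). Trim28, the corepressor recruited by zinc finger proteins of the ZFP57 kind, had 8175 reads with the GR vector and 8396 with the control vector (fold 0.976, 0.947 to 1.01). Zfp57 had no row, while Zfp445, which shares its role, had 2335 reads with the GR vector and 2277 with the control vector. The library test called 1 of the 13, Smchd1, a chromatin protein of imprinted clusters and the inactive X chromosome, with 3240 reads with the GR vector and 2965 with the control vector and an adjusted p of 0.0203, beside 4.52% of genes averaging 50 reads or more called. It too was named after its value was seen.

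Around IGF2 and its receptors, 20 of 25 listed genes had a row and 17 averaged 50 reads or more. Of the 17, 0 were above 1.2-fold and 2 below, beside 4.03% and 3.96% of the 12119 genes that averaged 50 reads or more. These were Igfbp5, a binding protein of insulin-like growth factors, with 82 reads with the GR vector and 113 with the control vector (fold 0.728, 0.541 to 0.976), and Irs1, a substrate of the insulin and IGF1 receptors, with 377 reads with the GR vector and 461 with the control vector (fold 0.820, 0.714 to 0.942). Neither passed the library test. Of the 31-mers of Irs1, 30.7% occur in another gene, so its count is uncertain. Igf2r and Akt2, a kinase of the insulin signal, were the most read, Akt2 with 7511 reads with the GR vector and 7719 with the control vector (fold 0.976). The library test called 1 of the 20, the adaptor gene Shc1, lower with the GR vector, at 2962 reads against 3328 with the control vector (fold 0.893, 0.849 to 0.938, adjusted p 0.00108), beside 2.72% of all genes called in either direction and 1.14% called lower. Shc1 was named after its value was seen. The median log2 fold of the list was -0.02, and 0.0034 with the GC trend removed.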

How the data were processed

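RNA sequencing libraries of MIN6 cells, 1 with a GR vector and 1 with a control vector, were analysed from the table that the authors deposited. Its 2 columns hold read counts scaled to a common library size, a normalized signal by the authors. Dividing by 1 step per library gave whole reads for 100% of values (within 0.01 reads), with totals of 18525668 and 18537326. DESeq2 1.10.1 is the 1 tool in the submitters' processing notes. No aligner, counter, strand setting or build is named there. The log2 fold change and the p-values that the authors deposited equalled those of an exact test of edgeR 4.0.16 with a preset dispersion of 0.04 (a coefficient of variation of 20%) to within 4.9e-08, and that test on the recovered reads called 4 genes.

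Folds are ratios of reads after TMM scaling of library sizes, and their exact 95% intervals are of the Clopper-Pearson kind. The quasi-likelihood test of replicate counts could not be fitted with 1 library per group. The library test (scipy 1.17.1) was tried on simulated reads with counting error only, which is what the test assumes. That trial cannot show how the test behaves where samples of 1 group differ by more than counting error. Gene lengths were taken as deposited. Of the identifiers, 21516 occur in GENCODE M21 (GRCm38), 96.8% with the same coordinates, and that annotation gave GC content (lowess trend, fraction 0.3), overlaps and shared 31-mers. Sequences are from RefSeq.

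The members and lists were chosen with earlier results of these data known. The text names all members, and from each list up to 4 genes past 1.2-fold and the 2 most read, and may name neighbours of a member. For the marker lists the most read are named in part. The enrichment files were not used. Because the labels do not describe replicates, precision rests on read numbers alone.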

Additional observations from a re-analysis of the deposited data

How the results depend on the processing

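With 1 library per group, no library could be left out. No paired analysis was possible because each group has 1 sample. The log2 folds of the 9 members were recomputed with total reads, with median-of-ratios size factors and with the trends of GC content and of mean reads removed. Of these 36 values, 35 stayed inside the member's counting interval and the largest shift was 0.07. The exception was Nnat with the GC trend removed (0.01), and Nnat and Rian changed sign there. The count of members past 1.2-fold, 0 of those with a mean of at least 50 reads, was 1 (Grb10) at a minimum mean of 10 reads and 2 (with Mirg) with no minimum. It stayed 0 with a limit of 1.1, with the other scalings and with either trend removed, the last 2 chosen after seeing the data. It was also 0 with a limit of 1.5 or a minimum of 100 reads, which are stricter and could give no other count. Over all genes the count of 968 became 3020 at a limit of 1.1 and 105 at 1.5, and 8081 with no minimum, 2768 at 10 reads and 558 at 100. At a threshold of 0.01 the library test called 252 genes in place of 585 and 0 members in place of 1. The exact test called 16 genes at a preset dispersion of 0.01 and 0 at 0.16, and 0 members at each of these. With the longest transcript as length, 8 of the 9 levels left their interval with the GR vector and 9 with the control vector. Few reads limit what can be said of Grb10 and Mirg.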

Other observations

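Some genes next to the members were looked at after their values were seen. Src, a tyrosine kinase gene 88216 bases from Nnat, had 1244 reads with the GR vector and 1438 with the control vector (fold 0.868, 95% counting interval 0.804 to 0.937), while Nnat itself stood at 0.972. Cd81, a tetraspanin gene in the imprinted region next to Igf2, had 56 reads with the GR vector and 32 with the control vector (fold 1.76, 1.12 to 2.80), and its adjusted p in the library test was 0.172. Begain, near Dlk1, had 44 reads with the GR vector and 29 with the control vector (fold 1.52, 0.931 to 2.52). Cd81 and Begain lie inside the range of 0.413 to 2.25 that held the central 95% of 2916 genes with a mean of 10 to 50 reads. For 4275 genes with a mean of 1000 to 5000 reads that range was 0.902 to 1.12, and Src lies below it. The row of the miRNA gene Mir483 inside Igf2 had 5 reads with the GR vector and 3 with the control vector, and that of Mir1188 inside Rian had 0 with the GR vector and 3 with the control vector.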
